A study of Mus musculus with 2 samples.

Results

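The genes described are 10 contractile genes of smooth muscle and actin genes: Acta1, Acta2, Actg2, Actc1, Tagln, Cnn1, Myl9, Mylk, Tpm1 and Tpm2. They were taken by symbol from the probe sets that the platform annotation assigns to exactly 1 gene, with the brightest probe set kept per gene, and all 10 were found among 22180 genes, each with 1 such probe set. RNA came from M210B4, an established mouse bone marrow stromal cell line. One culture was treated for 24 h with a CD84-activating antibody (anti-CD84, clone 152-1D5) and the other for 24 h with an IgG1 isotype antibody. Both cultures, of 200000 cells each, were kept at 37 °C in 5% CO2 in RPMI medium with a low serum content (2% FCS). The RNA of each treatment went on a single Affymetrix Mouse Gene 2.0 ST array, so every value stands for 1 culture of 1 line and no difference has a replicate check, an error or a p-value.

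Contraction of smooth muscle rests on actin filaments that slide along myosin. Calcium-bound calmodulin activates myosin light chain kinase, which phosphorylates the regulatory light chain, and a phosphatase reverses this. Tropomyosin, calponin and transgelin bind along the actin filament. Stromal cells and fibroblasts use many of the same genes in stress fibres, and smooth muscle alpha-actin is the usual marker of myofibroblasts. Transcription of the programme is driven largely by serum response factor (SRF), which binds the CArG box together with coactivators of the myocardin family. Some of those coactivators respond to the pool of unpolymerised actin.

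The deposited values are log2 expression summaries, with medians over 41345 probe sets of 4.87 on the anti-CD84 array and 4.88 on the IgG1 array. A gene was called detected when it was above 4.84, the 95th percentile of 1394 olfactory and vomeronasal receptor genes, on at least 1 array, which left 13284 genes. Differences are anti-CD84 minus IgG1, and their median over the detected genes was 0.09. Of the marrow stromal markers, Col1a1 (12.52 after anti-CD84, 12.53 after IgG1), Col1a2 (12.16 after anti-CD84, 12.06 after IgG1) and Pdgfrb (11.92 after anti-CD84, 11.45 after IgG1) were far above that level, whereas Eng, Nt5e and Lepr were below it on both arrays. The haematopoietic marker Ptprc (3.90 after anti-CD84, 3.86 after IgG1) was below it as well, whereas Cd68 (5.95 after anti-CD84, 6.21 after IgG1) and Spi1 (4.88 after anti-CD84, 5.02 after IgG1), markers of macrophages and myeloid cells, were above it on both. Because RNA of a whole culture was measured, fewer cells with a transcript and less transcript per cell cannot be told apart.

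Promoter windows, taken from RefSeq (GRCm38.p6) as 250 bases before to 50 bases after each annotated start, were matched for 8 of the 10 genes, and Actg2 and Tagln were not matched. A CArG box was present in the windows of Acta1, Actc1 and Myl9, that is 3 of 8, against 1.63% of all 32851 windows. Boxes with a single G or C in the core of A and T were then searched, a choice made after the windows had been seen. Such boxes were present in 4 of 8 windows, those of Acta1, Acta2, Actc1 and Myl9, against 8.50% of all windows. TATAAA was present in the windows of Acta1 and Actc1 and in 13.6% of all windows. The match of Acta1 lies before the annotated start, and that of Actc1 in the 50 bases after it, which are not printed. Both strands were searched, and matches of the 3 patterns did not overlap each other in any of the 8 windows. The 4 windows with boxes are shown, each as the 250 bases before the start and 5′ to 3′ on the strand of the gene, because they put the 3 actins that had a window and the regulatory light chain beside each other. The capitals mark the boxes of both kinds. A match describes letters only and is not evidence of binding.
Acta1, chr8:123894776-123895025, minus strand: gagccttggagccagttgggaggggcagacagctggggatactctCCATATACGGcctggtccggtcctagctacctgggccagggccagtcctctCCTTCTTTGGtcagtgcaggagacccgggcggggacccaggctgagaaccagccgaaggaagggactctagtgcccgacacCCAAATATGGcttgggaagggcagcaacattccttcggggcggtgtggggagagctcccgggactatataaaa
Acta2, chr19:34255374-34255623, minus strand: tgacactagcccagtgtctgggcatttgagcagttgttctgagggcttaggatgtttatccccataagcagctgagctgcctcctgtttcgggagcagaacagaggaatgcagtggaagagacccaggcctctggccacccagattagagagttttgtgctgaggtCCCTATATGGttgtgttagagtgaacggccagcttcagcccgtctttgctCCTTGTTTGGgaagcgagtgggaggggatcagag
Actc1, chr2:114052876-114053125, minus strand: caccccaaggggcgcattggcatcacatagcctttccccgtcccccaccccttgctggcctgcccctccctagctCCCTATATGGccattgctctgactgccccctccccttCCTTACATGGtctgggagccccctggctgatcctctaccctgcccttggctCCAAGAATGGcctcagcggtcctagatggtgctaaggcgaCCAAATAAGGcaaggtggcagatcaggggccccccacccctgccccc
Myl9, chr2:156775214-156775463, plus strand: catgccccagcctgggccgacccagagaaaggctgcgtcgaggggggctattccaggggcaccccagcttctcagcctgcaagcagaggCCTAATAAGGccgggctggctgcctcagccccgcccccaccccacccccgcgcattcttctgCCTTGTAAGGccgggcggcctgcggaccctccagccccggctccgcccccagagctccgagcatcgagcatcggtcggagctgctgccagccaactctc

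In Acta1 the full box, CCAAATATGG, began 73 bases before the start, and boxes with 1 G or C began 205 and 154 bases before it. Actc1 had a full box, CCAAATAAGG, beginning 47 bases before the start. Its boxes with 1 G or C began 175, 138 and 87 bases before it. The full box of Myl9, CCTAATAAGG, began 161 bases before the start, and a box with 1 G or C began 99 bases before it. Acta2 had no full box in this window and carried CCCTATATGG and CCTTGTTTGG, beginning 84 and 34 bases before the start. The same letters CCCTATATGG occur in Actc1. No box of either kind lay in the windows of Cnn1, Mylk, Tpm1 and Tpm2, which says nothing about sites outside these windows.

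The question behind the comparison was how expression differs after CD84 activation. Within this group the muscle actins diverged, with Actg2 and Acta1 more than 1.5-fold lower after anti-CD84 and Acta2 slightly higher. Differences under 1.5-fold were seen for the actin-binding genes Cnn1 and Tagln, on the lower side, and for the regulatory light chain Myl9, its kinase Mylk and the tropomyosin gene Tpm2, on the higher side. Tpm1 was nearly equal on both arrays, and Actc1 was below the detection level on both.

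Actg2, the gamma actin of visceral smooth muscle, had a log2 value of 8.61 after anti-CD84, against 9.47 after IgG1. That is a difference of -0.85, or 1.81-fold lower. Of 1376 detected genes with a mean level between 9 and 10, 9 (0.654%) were as far down or further. Acta1, the alpha actin of skeletal muscle, stood at 6.20 after anti-CD84 and 6.98 after IgG1. The difference of -0.77 is 1.71-fold lower, a distance reached by 58 of 2283 detected genes (2.54%) with a mean level of 6 to 7.

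Acta2, the smooth muscle alpha-actin, went the other way, at 13.07 after anti-CD84 against 12.82 after IgG1. It was 1.19-fold higher, with a difference of 0.25, and 19.1% of the 272 detected genes over a mean level of 11 were as high or higher. Its difference lay 1.11 above that of Actg2 and 1.02 above that of Acta1, each on the log2 scale. Actc1, the alpha actin of heart muscle, had values of 3.60 after anti-CD84 and 3.73 after IgG1, and no fold is given for it because both are below 4.84. The proteins of these 4 genes are nearly identical, so probe sets of such paralogues can share signal. Probe sequences were not used here and shared signal was not tested. The cytoplasmic actins Actb (10.14 after anti-CD84, 9.90 after IgG1) and Actg1 (11.11 after anti-CD84, 11.01 after IgG1) had differences of 0.24 and 0.10.

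**Figure D1:**
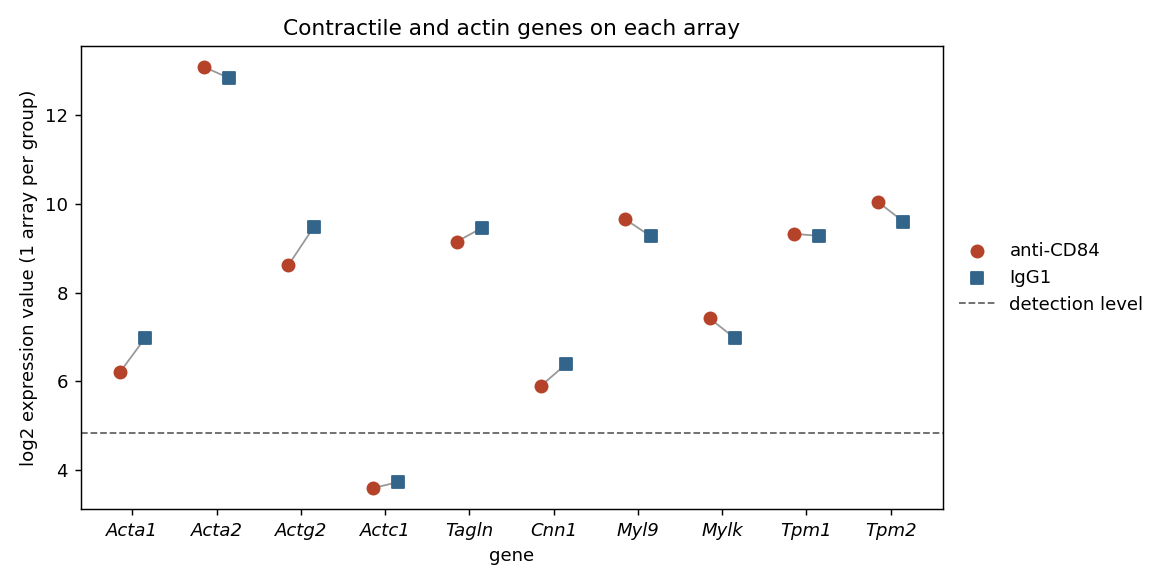
Log2 expression value of each of the 10 genes (y axis, no unit) on the anti-CD84 array (circles) and the IgG1 array (squares), with 1 array per group and the detection level of 4.84 dashed. Actg2 and Acta1 have the largest gaps and Actc1 lies below the dashed line on both arrays; heights of different genes come from different probes and cannot be ranked against each other.

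Cnn1, which encodes calponin, an actin-binding protein that restrains the myosin ATPase, was at 5.91 after anti-CD84 and 6.39 after IgG1. It was 1.40-fold lower, with a difference of -0.49, and 171 of 2283 genes of similar level (7.49%) were as low or lower. Tagln encodes transgelin (SM22), an actin-crosslinking protein used as an early smooth muscle marker, and had 9.15 after anti-CD84 against 9.46 after IgG1. Its difference of -0.31, or 1.24-fold lower, was reached by 8.94% of the genes with a mean level between 9 and 10. Both genes were above the detection level on each array, and neither passed 1.5-fold.

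Myl9, the regulatory light chain of smooth muscle and non-muscle myosin, was at 9.65 after anti-CD84 and 9.27 after IgG1, 1.30-fold higher. The kinase gene Mylk was at 7.42 after anti-CD84 and 6.97 after IgG1, 1.36-fold higher. The differences, 0.38 for Myl9 and 0.45 for Mylk, were reached by 257 of 1376 detected genes with a mean level of 9 to 10 and 467 of 2338 with a mean level of 7 to 8, so differences of this size were common. Both genes were on the higher side after anti-CD84, opposite to Cnn1 and Tagln, and the difference of Mylk lay 0.94 above that of Cnn1.

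The tropomyosins form the coiled rod along the actin filament. Tpm2 was at 10.04 after anti-CD84, against 9.60 after IgG1, which is 1.36-fold higher with a difference of 0.44. This was reached by 192 of the 1376 genes between 9 and 10. Tpm1 was at 9.32 after anti-CD84 and 9.28 after IgG1, a difference of 0.04. That is below the median of all detected genes, so Tpm1 changes sign, to between -0.07 and -0.04, when the arrays are centred, loess-corrected or quantile-normalized.

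Of the 10 genes, 9 passed the filter on low values and all 9 exceeded 4.84 on each array. Among them 5 had a positive and 4 a negative difference, from -0.85 for Actg2 to 0.45 for Mylk. At 1.5-fold, 2 of 9 were lower after anti-CD84, where 6.4% of all detected genes were, and 0 of 9 were higher, where 10.7% of all detected genes were. No member passed 2-fold in either direction, against a background of 1.98% higher and 1.43% lower. With the differences centred on their median, the background at 1.5-fold was 7.71% higher and 8.49% lower, against 1427 genes higher and 850 lower without centring. The median of the 9 was 0.04, their standard deviation 0.52, and that of all detected genes 0.44. A pair of genes past 1.5-fold out of 9 is too few to set against these shares.

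**Figure D2:**
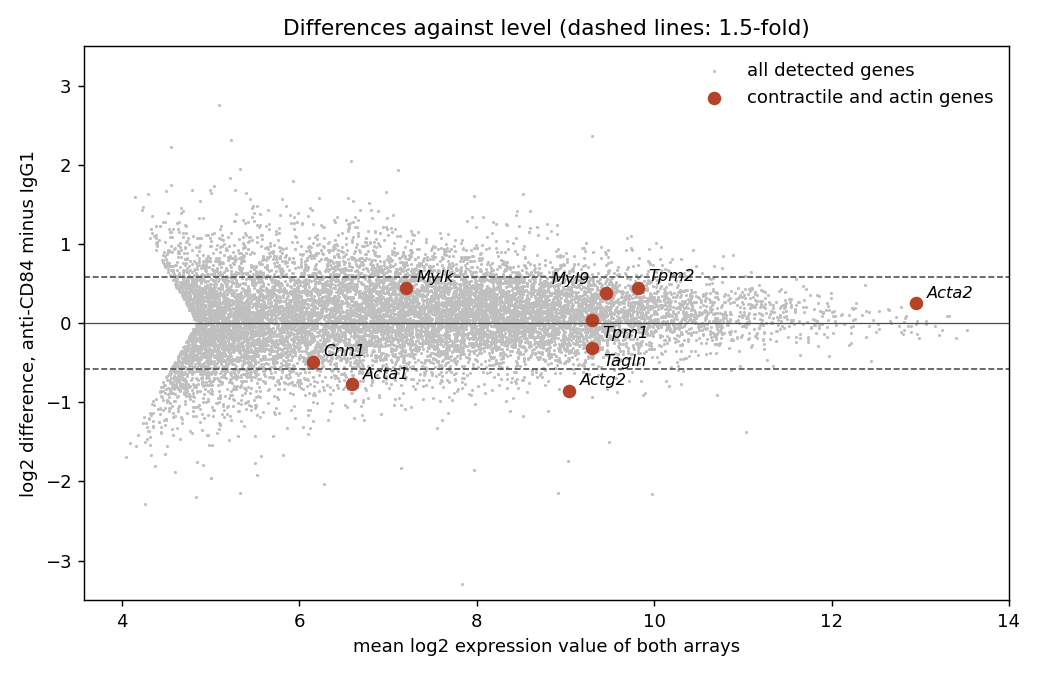
Log2 difference, anti-CD84 minus IgG1 (y axis), against the mean log2 value of both arrays (x axis) for 13284 detected genes in grey and 9 contractile and actin genes in red, with dashed lines at 1.5-fold. Actg2 and Acta1 lie under the lower dashed line, and Actg2 sits near the lower edge of the grey points at its level.

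The order of the genes hardly depended on how the arrays were scaled. Actg2 ranged from -0.97 to -0.85 and Acta1 from -0.89 to -0.77 over the alternatives. Both stayed past 1.5-fold with centring, the loess curve removed and quantile normalization. The other alternatives, averaging probe sets and raising low values to the detection level, could not change these values. Cnn1 was past 1.5-fold only with quantile normalization, at -0.59. The higher genes stayed positive, with Acta2 at 0.17 to 0.25, Myl9 at 0.27 to 0.38, Tpm2 at 0.33 to 0.44 and Mylk at 0.32 to 0.45.

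**Figure D3:**
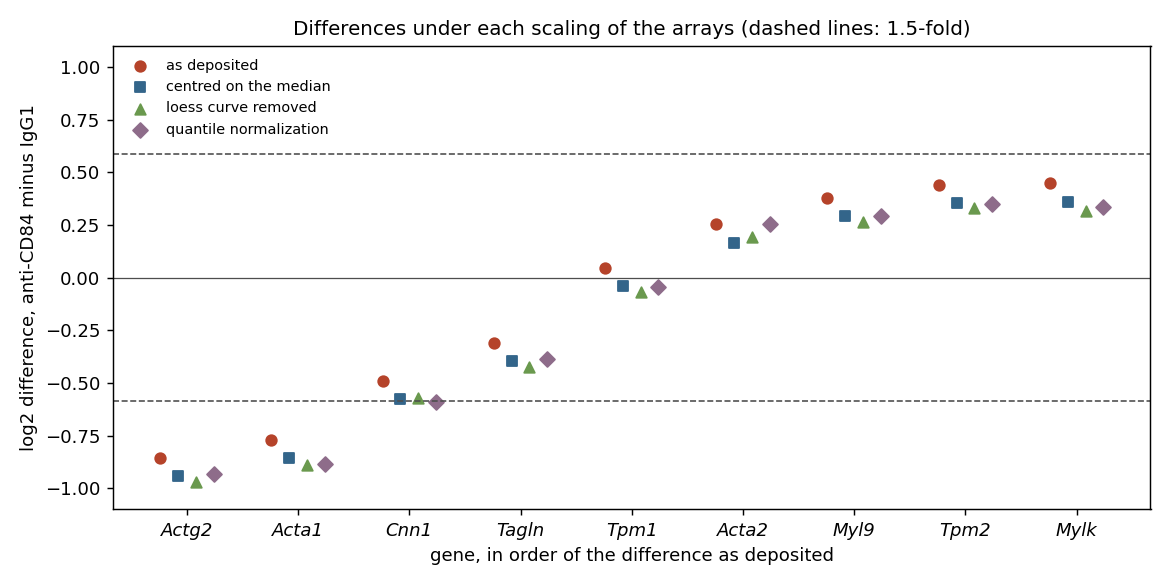
Log2 difference, anti-CD84 minus IgG1 (y axis), of the 9 detected genes (x axis) with the values as deposited and under 3 other scalings of the arrays, with dashed lines at 1.5-fold. Every other scaling gives a value equal to or below the deposited one, which turns Tpm1 negative and takes Cnn1 to the dashed line.

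Other genes of the smooth muscle contractile programme showed no common direction. Of 20 listed, 19 were measured and 13 detected. At 1.5-fold 1 of the 13 was higher and 0 lower, where 10.7% and 6.4% of all detected genes were. The median was -0.08. The higher gene was Tgfb1i1, which encodes the focal adhesion coactivator Hic-5, at 9.63 after anti-CD84 against 8.80 after IgG1, 1.77-fold higher. The late differentiation markers Myh11, the smooth muscle myosin heavy chain (4.88 after anti-CD84, 5.17 after IgG1), and Lmod1, leiomodin (5.97 after anti-CD84, 6.32 after IgG1), had differences of -0.29 and -0.35. Larger differences of opposite sign were those of Csrp2 (9.70 after anti-CD84, 9.19 after IgG1) and Kcnmb1 (5.18 after anti-CD84, 4.64, under the detection level, after IgG1). Counted from that level Kcnmb1 was at least 1.27-fold higher. With the loess curve removed its difference was past 1.5-fold, at 0.61. In all, 6 of the 13 were positive and 7 negative. Smtn, which encodes smoothelin, was at 9.82 after anti-CD84 and 9.65 after IgG1. Desmin (Des) was at 4.86 after anti-CD84 and 4.78 after IgG1, close to the detection level, as was Myh11 after anti-CD84.

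Genes listed as non-muscle counterparts of the 10 genes lay within 1.5-fold. All 16 detected genes of 17 did so on the deposited scale, with a median of 0.05. Past that fold were 10.7% of all detected genes higher and 6.4% lower. The list also holds Mylk2 and Mylk3, which are light chain kinases of skeletal and heart muscle. Mylk2 (4.56 after anti-CD84, 4.86 after IgG1) was detected through the IgG1 array only, and Mylk3 was below the level on both. Myl6b, an essential light chain, was at 6.43 after anti-CD84 and 5.89 after IgG1, the highest difference in this list (0.54). Myh10, the heavy chain of non-muscle myosin IIB, was at 8.55 after anti-CD84 and 9.06 after IgG1, the lowest (-0.51). Under each of the 3 other scalings Myh10 was past 1.5-fold, at -0.63 to -0.59. The paralogues of the 2 lower actin-binding genes, Tagln2 (10.22 after anti-CD84, 10.09 after IgG1), Cnn2 (11.41 after anti-CD84, 11.27 after IgG1) and Cnn3 (11.77 after anti-CD84, 11.62 after IgG1), had differences of 0.13 to 0.14. Tagln3, a further paralogue, was at 5.73 on both arrays.

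The transcriptional regulators differed in sign. Of 14, 13 were detected, with a median of 0.22. At 1.5-fold 1 was higher and 2 lower, where 10.7% and 6.4% of all detected genes were. These counts are too few to set against those shares. Srf was at 8.60 after anti-CD84 and 8.90 after IgG1 (difference -0.29), and its actin-sensing coactivator Mrtfa at 8.21 after anti-CD84 and 8.45 after IgG1 (-0.24). Mrtfb had the opposite sign, at 8.70 after anti-CD84 against 8.24 after IgG1. Neither value of Myocd, the myocardin gene, reached the detection level (4.31 after anti-CD84, 3.86 after IgG1).

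Scai, a repressor of myocardin-related coactivators, was at 7.59 after anti-CD84 against 6.78 after IgG1 and so 1.76-fold higher. Gata6, a factor of differentiated vascular smooth muscle, was at 5.71 after anti-CD84 and 6.42 after IgG1, 1.64-fold lower. Foxo4, a forkhead factor that interacts with myocardin, was at 5.28 after anti-CD84 and 5.94 after IgG1, 1.58-fold lower. These 3 were past 1.5-fold under all 3 other scalings as well. Elk1, an ETS factor that competes for SRF, had a difference of 0.58, just inside 1.5-fold (7.27 after anti-CD84, 6.69 after IgG1). The remaining differences were 0.11 for Elk3, 0.23 for Elk4, 0.02 for Klf4, 0.50 for Klf5, 0.22 for Prrx1 and 0.30 for Tead1.

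Among focal adhesion and crosslinking genes that SRF is known to drive, 19 of 20 were measured and detected. Their median was 0.11. At 1.5-fold 2 were higher and 0 lower, against 10.7% and 6.4% of all detected genes. Lima1, an actin-bundling LIM protein gene, was at 9.81 after anti-CD84 and 9.15 after IgG1, 1.58-fold higher, and lay inside 1.5-fold under the 3 other scalings. Filip1l had values of 5.25 after anti-CD84 and 4.34 after IgG1, the second of them under the detection level. Counted from that level, Filip1l was at least 1.33-fold higher. Vcl, which encodes vinculin (10.92 after anti-CD84, 10.65 after IgG1), Zyx, zyxin (10.07 after anti-CD84, 9.79 after IgG1), and Flna, filamin A (11.42 after anti-CD84, 11.39 after IgG1), were within 1.5-fold.

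Actin filament assembly and turnover genes had 27 of 31 members detected and a median of -0.04. In each direction 1 was past 1.5-fold, where 10.7% of all detected genes were higher and 6.4% lower. Wasf1, a subunit of the WAVE complex that activates branched actin assembly, was at 6.23 after anti-CD84 against 8.06 after IgG1, 3.56-fold lower. Pfn2, a profilin, was at 7.02 after anti-CD84 and 6.32 after IgG1, 1.63-fold higher, and moved just inside 1.5-fold with the loess curve removed or quantile normalization. Pfn1, the main profilin (12.04 after anti-CD84, 12.06 after IgG1), and the cofilin gene Cfl1 (9.96 after anti-CD84, 9.74 after IgG1) had differences of -0.03 and 0.22.

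**Figure D4:**
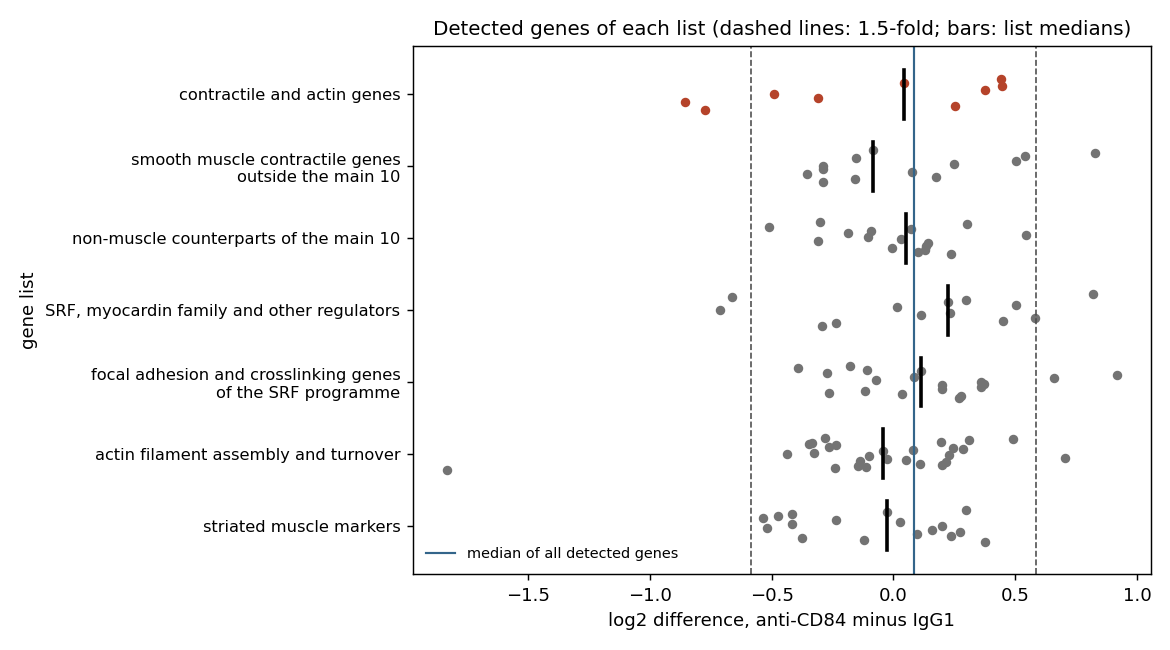
Log2 difference, anti-CD84 minus IgG1 (x axis), of the detected genes of each list (y axis), with 1 point per gene, black bars at list medians, a blue line at the median of all detected genes (0.09) and dashed lines at 1.5-fold. The contractile and actin genes spread from -0.85 to 0.45 and their median of 0.04 lies near the blue line.

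Markers of striated muscle, which also uses Acta1 and Actc1, were checked beside these genes. Of 35 measured, 17 were detected and 0 were past 1.5-fold on the deposited scale. Among all detected genes 10.7% were higher and 6.4% lower. The list averaged 4.82 after anti-CD84 and 4.85 after IgG1. Myod1, the master factor of skeletal muscle, had values of 5.07 after anti-CD84 and 4.70 after IgG1, the second of them under the detection level. Skeletal myosin heavy chains Myh1, Myh2 and Myh4 were below the detection level on both arrays. Tnnc1, a troponin gene of heart and slow skeletal muscle, was well above it, at 7.26 after anti-CD84 and 7.68 after IgG1. Tnnt2, with a mean of 7.87 over both arrays, was well above it too and went the other way, with a difference of 0.27. A total of 14 of the 35 exceeded the level on both arrays, among them Myog, Myh7 and Nkx2-5 (6.17 after anti-CD84, 6.55 after IgG1). Of the 17 detected genes, 8 had a positive and 9 a negative difference. The 2 lowest differences among detected members were those of Myl3 (4.61 after anti-CD84, 5.14 after IgG1) and Tnni1 (4.93 after anti-CD84, 5.45 after IgG1). With centring both were past 1.5-fold lower, at -0.62 for Myl3 and -0.60 for Tnni1. Myl3 was under the detection level after anti-CD84 and, counted from that level without centring, at least 1.23-fold lower.

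Markers of other cells with contractile genes, or of other marrow cells, were partly detected. In the pericyte list 5 of 9 genes were detected and 0 were past 1.5-fold, against 10.7% higher and 6.4% lower of all detected genes. Rgs5, a pericyte signalling regulator, was at 3.44 after anti-CD84 and 4.09 after IgG1, both below the level, and the list averaged 5.66 after anti-CD84 and 5.68 after IgG1. Cspg4, the proteoglycan NG2 (8.03 after anti-CD84, 8.01 after IgG1), and Notch3, a receptor of mural cells (5.65 after anti-CD84, 5.51 after IgG1), exceeded 4.84 on both arrays. The detected pericyte markers with the largest differences were Pdgfrb (0.47) and Cox4i2 (5.72 after anti-CD84, 5.32 after IgG1). In the endothelial list 3 of 8 were detected. Of these, 2 were 1.5-fold lower as measured, where 13.3% of all detected genes with a mean level under 6 were. The other, Emcn, was at 5.19 on both arrays, above the level. Cdh5, VE-cadherin, was at 4.61 after anti-CD84, below the level, and 5.56 after IgG1, at least 1.65-fold lower, and Pecam1 was at 4.32 after anti-CD84 and 4.99 after IgG1, at least 1.11-fold lower. With the loess curve removed Pecam1 lay inside 1.5-fold, at -0.56. The endothelial list averaged 4.40 after anti-CD84 and 4.68 after IgG1.

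Of 9 haematopoietic markers measured, 3 were detected and the list averaged 4.43 after anti-CD84 and 4.54 after IgG1. Csf1r, the receptor of a macrophage growth factor, was the member past 1.5-fold as measured, where 10.7% of all detected genes were higher. It was at 4.86 after anti-CD84 against 4.14, below the level, after IgG1, and so at least 1.01-fold higher. Among 11 marrow stromal markers measured, 8 were detected and 2 were past 1.5-fold, both higher, against 10.7% of all detected genes. These were Pdgfra, a growth factor receptor (10.21 after anti-CD84, 9.29 after IgG1), and Cxcl12, the chemokine that retains blood progenitors (10.29 after anti-CD84, 9.19 after IgG1). Thy1, a surface glycoprotein, had the lowest difference (4.39 after anti-CD84, under the detection level, against 4.95 after IgG1). It was -0.56 as measured and -0.65 with centring, the second of them past 1.5-fold. Counted from the detection level without centring, Thy1 was only at least 1.08-fold lower. The stromal list averaged 8.51 after anti-CD84 and 8.21 after IgG1. What part any of these cell types had in the differences of the contractile genes was not tested.

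Genes with a full CArG box in their promoter window were looked at across the arrays. Of 164 such detected genes, 11.6% were 1.5-fold higher and 9.15% lower after anti-CD84, and the median difference was 0.11. Among all 10305 detected genes with a window the shares were 10.6% and 5.91%, and the median was 0.09. Several of the 15 lower genes, such as Ripor2 (4.32 after anti-CD84, 5.52 after IgG1), were under the detection level after anti-CD84. Some higher genes, such as Aqp9 (5.15 after anti-CD84, 4.32 after IgG1), were under it after IgG1. Of all detected genes with a mean level under 6, 12.2% were higher and 13.3% lower. Whether the shares differ apart from such dim genes was not tested. Acta1 was among the 15 lower genes, and Myl9, with its full box, had a positive difference. The members that carry full boxes therefore differed in sign.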

How the data were processed

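Labelled RNA of 2 M210B4 cultures was hybridized to 1 array each. Total RNA (200 ng) was labelled with biotin, per the labels' protocols. The values deposited by the authors are on a log2 scale, 1 for each probe set and array, and RMA and Partek are named in the submitters' processing notes without settings. Which arrays were normalized together, with which annotation and build, is not given in the sources used here. Values between 1.82 and 13.8 were read as log2. RMA compresses dim signals, so folds of dim genes can be understated. Probe sets with several symbols (1814) or none listed (16010) of 41345 were not used for genes. All 10 symbols matched the RefSeq gene table by gene ID.

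With 1 array per group no test was run, and the number of arrays limits the precision. Differences of 1.5-fold and 2-fold were counted among detected genes. A gene with 1 array below the detection level got an "at least" fold counted from it, which is no statistical bound. One gene list is not reported here. Members and gene lists were chosen with earlier results of these data known. Named genes were all 10 members, all listed regulators, Actb and Actg1, and from each other list the genes past 1.5-fold or else the 2 with the largest difference. Myh11, Lmod1, Smtn, Des and other genes given for their role, level or difference were named after their values were seen. The counting step was checked on simulated data. Alternatives were centring, a loess curve removed (limma 3.58.1, span 0.4), quantile normalization, the mean of all probe sets, flooring, and other filters. The tools were R 4.3.3 and, in Python 3.11.15, matplotlib 3.10.9, pandas 2.3.3 and numpy 2.4.6.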

Additional observations from a re-analysis of the deposited data

How the results depend on the processing

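Of 45 differences recomputed for the 9 detected genes under 5 alternatives, 41 kept their sign and their side of 1.5-fold, 4 did not, and 0 genes past 1.5-fold changed sign. The 4 were Tpm1 with centring (-0.04), the loess curve removed (-0.07) and quantile normalization (-0.04), and Cnn1 with quantile normalization (-0.59). The median of the detected genes, 0.04, became -0.0422 with centring, -0.0688 with the loess curve removed, -0.0435 with quantile normalization and -0.0456 with no level filter, which adds Actc1. It was 0.15 with the stricter level of 6.88, which leaves out Cnn1. The count of 2 lower genes was 3 with quantile normalization and 0 at 2-fold, and the count of higher genes was 0 in every alternative run. Each gene has 1 probe set, so averaging probe sets changed nothing. Flooring changed nothing either, because all 9 detected genes exceeded the detection level on each array. The 41 therefore include values that could not move. Only centring, the loess curve and quantile normalization could change a difference. With 1 array in each group no replicate could be left out. No paired analysis was possible because each group has 1 array and no test was run. Below the detection level values have no order, which limits Actc1 and Myocd.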
